A study of Homo sapiens with 6 samples.

Results

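A set of 10 genes of Wnt signal reception was described in H1299 cells, an established human lung carcinoma line, with and without an shRNA that targets CCNB1, which encodes cyclin B1. They were the ligands WNT2B, WNT5A, WNT5B and WNT7B, the receptors FZD1, FZD2, FZD6 and FZD7, and the co-receptors LRP5 and LRP6, which were 10 of the 58336 genes in the deposited tables. The members were named by symbol and chosen with earlier results of these data known. WNT2B was chosen by its higher counts with the shRNA in these same libraries, so its difference is given as a description with no test. Of the 10 members, 9 passed the filter on low counts, beside 17349 genes in all, and WNT5A did not.

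Both groups were H1299 cells carrying a PLVT7 vector, 3 libraries with a mock vector and wild-type CCNB1 and 3 libraries with the CCNB1 shRNA. Both were labelled as stable transfectants selected with puromycin at 1 µg/ml, from cultures 14 days past confluence, in RPMI-1640 medium with 10% serum. The labels name 1 shRNA construct, so what the knockdown of CCNB1 and the construct itself contribute cannot be told apart. They do not say whether libraries of 1 group are separate cultures, and the p-values therefore reflect library-to-library spread that may be technical. Total RNA was sequenced, and in such bulk samples fewer cells of a kind and less RNA per cell cannot be told apart.

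Wnt proteins are lipid-modified secreted ligands that bind the cysteine-rich domain of frizzled receptors. With the co-receptors LRP5 or LRP6, a ligand-bound frizzled stops the degradation of beta-catenin, which then acts with TCF and LEF factors on target genes. Other frizzled signals, classically those of WNT5A, act without LRP5 or LRP6 on cell polarity, movement and calcium. In lung, WNT2B takes part with WNT2 in specifying the lung progenitors of the mouse foregut, and WNT7B in growth of the mouse airway and its mesenchyme.

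The libraries held between 28122665 and 30332989 counts, and a gene with 3 counts would read 0.0939 to 0.106 CPM. CPM is a count relative to all counted reads, here on libraries scaled by the trimmed mean of M values (TMM). The target, CCNB1, stood at 322, 305 and 294 CPM in mock libraries 1, 2 and 3 and at 19.9, 29.8 and 16.1 CPM in shRNA libraries 1, 2 and 3, a log2 fold change of -3.81 (SE 0.223, edgeR adjusted p = 0.000215). The second shRNA library stood apart from the other two: the chi-square of its counts against theirs, per degree of freedom, was 85.2 and 76.1, beside 27.7 between the other two and 13.9 to 30.1 among mock libraries. It also had the highest remaining CCNB1. Its log2 CPM over all genes tested correlated at 0.985, 0.987 and 0.984 with mock libraries 1, 2 and 3. With shRNA libraries 1 and 3 the correlation was 0.979 and 0.978. Calls that turn on this library are given with and without it. Leaving it out removes the shRNA library most like mock, which favours calls, so the fit without it is no independent check. The labels call the cells mesenchymal and the tissue lung adenocarcinoma. Of the mesenchymal markers 5 of 5 reached a mean of 1 CPM, with summed levels of 3315 to 3467 CPM in mock and 1884 to 3536 CPM in shRNA libraries. Of the epithelial markers 3 of 6 did, with 603 to 687 and 837 to 1648 CPM, while EPCAM and CDH1 were near 0. The markers of a list did not all move the same way. Among epithelial markers KRT19 was low and lower with the shRNA, at 0.560 and 0.205 CPM on average (edgeR adjusted p = 0.231). The mesenchymal CDH2 stood at 48.9 and 51.4 CPM (edgeR adjusted p = 0.811). VIM stood at 3178, 3279 and 3142 CPM in mock and 1739, 3326 and 1876 CPM in shRNA libraries (edgeR adjusted p = 0.358, DESeq2 adjusted p = 0.269). KRT8 stood at 356, 308 and 343 CPM and 792, 456 and 930 CPM (edgeR adjusted p = 0.105, DESeq2 adjusted p = 0.000453). KRT18 was likewise above mock in every shRNA library and least so in library 2 (edgeR adjusted p = 0.118, DESeq2 adjusted p = 0.00526). For FZD6, FZD1, FZD7 and WNT5B too, shRNA library 2 was the shRNA library nearest to mock, and narrowly so for FZD2 and WNT2B. The part of these markers in the results on Wnt genes was not tested. None of 4 alveolar lineage markers and none of 5 haematopoietic markers reached 1 CPM, with PTPRC and CD3E at 0, and 1 of 5 fibroblast and 1 of 4 endothelial markers did.

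The ligand WNT2B was low but detected in every library. Its level was 2.11, 2.40 and 2.84 CPM in mock libraries 1, 2 and 3, from 60, 68 and 82 counts, and 5.91, 5.47 and 5.98 CPM in the shRNA libraries, from 189, 155 and 178 counts. All 3 shRNA libraries lay above all 3 mock libraries, as was so for 10.8% of all genes tested, and the shRNA library that stood apart was close to the other two. The mean was 2.45 ± 0.366 CPM (SD, n = 3) in mock and 5.79 ± 0.277 CPM (SD, n = 3) in shRNA libraries, a log2 fold change of 1.24 (SE 0.189) or 2.36-fold. This difference chose the gene, and nothing is read from it.

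WNT2B lies on the + strand at chr1:112466541-112530165 (GRCh38, GENCODE 29). Of its 12561 exonic bases, 2661 (21.2%) are shared with ST7L on the opposite strand, all of them in the 9659-base 3′ UTR of WNT2B. Whether counting used strand was not given in the sources used here, and the WNT2B count is uncertain to that extent. ST7L itself stood at 11.3 ± 0.851 CPM (SD, n = 3) in mock and 11.5 ± 1.75 CPM (SD, n = 3) in shRNA libraries, a log2 fold change of 0.03 (edgeR adjusted p = 0.952).

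The promoters of WNT2B are shown because it has a pair of annotated starts, as do WNT5A and WNT5B, which are not shown. That of FZD1 is shown because it is the receptor with an entry whose groups did not overlap. All windows shown are RefSeq windows on GRCh38.p14 of 250 bases before to 50 bases from the start, on the + strand. They lie at chr1:112466291-112466590, chr1:112508715-112509014 and chr7:91264183-91264482. Capitals mark the letters CCAAT, or ATTGG where the motif is on the other strand.
WNT2B upstream start: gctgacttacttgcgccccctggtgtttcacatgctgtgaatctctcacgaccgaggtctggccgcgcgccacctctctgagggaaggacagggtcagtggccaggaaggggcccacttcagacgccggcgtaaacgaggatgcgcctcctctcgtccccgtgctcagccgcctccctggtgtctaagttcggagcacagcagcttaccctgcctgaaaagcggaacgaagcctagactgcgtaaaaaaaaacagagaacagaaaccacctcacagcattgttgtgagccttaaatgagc
WNT2B downstream start: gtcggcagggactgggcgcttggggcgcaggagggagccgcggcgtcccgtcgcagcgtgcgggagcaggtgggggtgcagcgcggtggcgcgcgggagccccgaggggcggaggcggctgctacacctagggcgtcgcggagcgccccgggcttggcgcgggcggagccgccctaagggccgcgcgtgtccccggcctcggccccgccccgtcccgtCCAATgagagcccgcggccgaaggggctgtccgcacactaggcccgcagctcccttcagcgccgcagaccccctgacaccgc
FZD1: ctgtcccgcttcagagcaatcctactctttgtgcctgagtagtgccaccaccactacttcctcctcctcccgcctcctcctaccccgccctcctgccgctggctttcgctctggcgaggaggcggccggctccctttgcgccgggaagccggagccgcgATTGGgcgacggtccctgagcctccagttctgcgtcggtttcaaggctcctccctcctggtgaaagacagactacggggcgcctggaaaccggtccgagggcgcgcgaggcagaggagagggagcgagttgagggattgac
The upstream WNT2B window had 57.7% GC and 18 CpG, the downstream one 78.7% GC and 43 CpG, and the FZD1 window 65.7% GC and 25 CpG, beside medians of 58.7% and 14 over 35116 promoters. A search of both strands found CCAAT at position -32 from the downstream WNT2B start and at -91 from the FZD1 start, and 34.6% of all promoters hold it. None of the 3 windows holds the TCF/LEF core CTTTGA, which 12.9% of all promoters hold, or the cell cycle element TTTGAA, which 15.2% hold. A match is a description of letters. RefSeq windows, 8 in all, were found for 5 of the 10 members. Among the windows not shown, the WNT5B window at chr12:1616806-1617105 (+ strand) holds TTTGAA at position 28 from the start.

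WNT5B, a ligand of the non-canonical branch, had the highest transcript level per length of the 4 ligands described. Its CPM was 10.7, 8.60 and 10.996 in the mock libraries and 17.3, 9.53 and 19.7 in the shRNA libraries. Shown by library, shRNA libraries 1 and 3 lay above every mock library and shRNA library 2 among them, so the groups overlapped. The log2 fold change was 0.62 (SE 0.248) and did not pass the threshold (edgeR adjusted p = 0.285). Without shRNA library 2 it was 0.87 (edgeR adjusted p = 0.00628).

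WNT5A and WNT7B were close to or at the limit of detection. WNT5A, the classical non-canonical ligand, had 3, 7 and 4 counts in the mock libraries and 5, 0 and 1 in the shRNA libraries. The sums were 14 (95% exact Poisson interval 7.65 to 23.5) and 6 (2.202 to 13.1), which cover counting error only and overlap, so a difference was not detectable at this depth. WNT7B, a ligand that signals through beta-catenin in several epithelia, stood at 0.562, 0.529 and 0.519 CPM in mock and 0.407, 0.918 and 0.336 CPM in shRNA libraries. Here shRNA library 2 lay above and the other two below every mock library. The log2 fold change was 0.03 (SE 0.434, edgeR adjusted p = 0.980), and -0.53 without shRNA library 2 (edgeR adjusted p = 0.421).

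**Figure D1:**
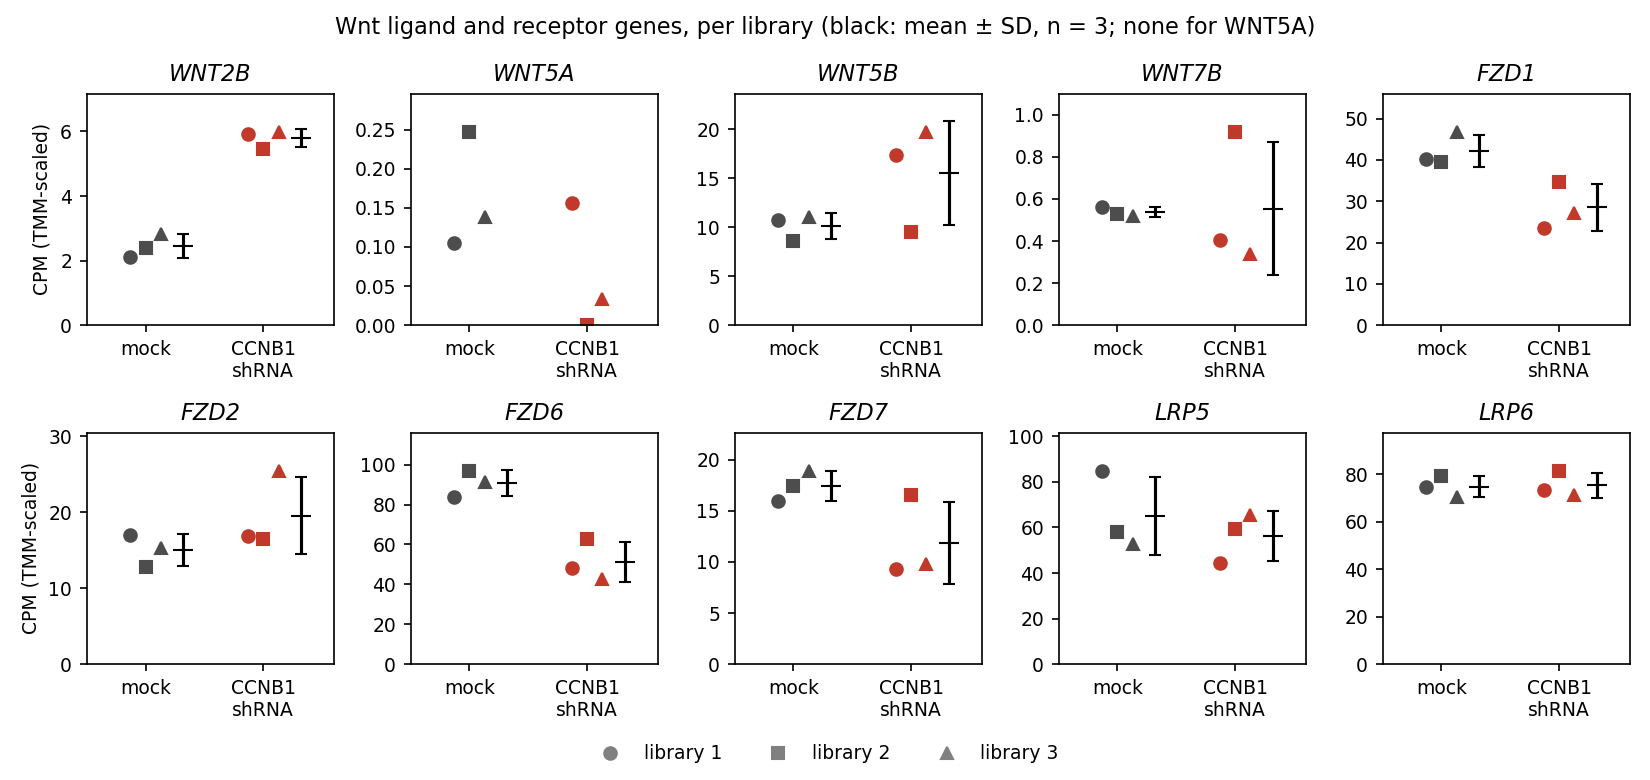
TMM-scaled CPM of the 10 members in each library, mock in grey and CCNB1 shRNA in red, with black bars for mean ± SD of 3 libraries (none for WNT5A). The 3 shRNA libraries lie above the mock libraries for WNT2B and below them for FZD1 and FZD6, and the groups overlap for the other 7 genes.

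FZD6, a frizzled known from planar polarity in mouse skin, was the most abundant member per length and had the widest gap among the receptors. Its level was 83.8, 96.8 and 91.5 CPM in the mock libraries and 48.1, 62.5 and 42.9 CPM in the shRNA libraries. Every shRNA library lay below every mock library, as was so for 8.85% of all genes tested, and shRNA library 2 was the nearest to mock. The means were 90.7 ± 6.503 and 51.2 ± 10.2 CPM (SD, n = 3 each), 1.77-fold lower, with a log2 fold change of -0.83 (SE 0.156). This missed the threshold in edgeR (adjusted p = 0.0959) and passed it in DESeq2 (adjusted p = 0.000374). Without shRNA library 2 the log2 fold change was -0.997 (edgeR adjusted p = 0.00103). FZD6 lies on chromosome 8 and shares 138 exonic bases with the antisense gene BAALC-AS1, which stood at 2.51 CPM in mock and 2.56 CPM in shRNA libraries on average.

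FZD1, a frizzled that can signal through beta-catenin, was lower in every shRNA library too. It stood at 40.1, 39.6 and 46.7 CPM in the mock libraries and at 23.6, 34.8 and 27.2 CPM in the shRNA libraries. The groups did not overlap, and shRNA library 2 was again the nearest to mock. The log2 fold change was -0.56 (SE 0.163), which did not pass in edgeR (adjusted p = 0.165) and passed narrowly in DESeq2 (adjusted p = 0.0442). Without shRNA library 2 it was -0.73 (edgeR adjusted p = 0.00735).

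FZD7, a receptor close to FZD1 and FZD2 in sequence, stood at 16.0, 17.4 and 18.9 CPM in mock and 9.26, 16.5 and 9.84 CPM in shRNA libraries. In this case shRNA library 2 was within the mock range and the other two below it. The log2 fold change was -0.55 (SE 0.219, edgeR adjusted p = 0.279), and -0.87 without that library (edgeR adjusted p = 0.00431). FZD2, the third of these receptors, stood at 17.0, 12.8 and 15.3 CPM in mock and 16.9, 16.4 and 25.4 CPM in shRNA libraries. Only shRNA library 3 lay above the mock range, and the log2 fold change was 0.38 (SE 0.197, edgeR adjusted p = 0.401).

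FZD1, FZD2 and FZD7 are each a single exon, at chr7:91264364-91271326, chr17:44557459-44559570 and chr2:202034587-202038445 (GRCh38, GENCODE 29, + strand), and their coding sequences hold identical stretches. These are shown because short reads within them cannot be assigned to 1 gene, and the treatment of such reads was not given in the sources used here. The longest stretch shared by FZD1 and FZD2 has 81 bases, at chr7:91266062-91266142 and chr17:44558645-44558725. The longest shared by FZD2 and FZD7 has 69 bases, at chr17:44557788-44557856 and chr2:202034777-202034845. Both come from the GENCODE 29 transcripts.
FZD1 and FZD2: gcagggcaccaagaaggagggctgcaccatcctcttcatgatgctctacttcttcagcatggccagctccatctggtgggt
FZD2 and FZD7: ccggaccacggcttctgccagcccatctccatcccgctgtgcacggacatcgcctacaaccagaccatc
Of all stretches of 50 bases, 32 were shared by FZD1 and FZD2, out of 6914 and 2063 in these genes, and 20 by FZD2 and FZD7. None was shared in the other 7 pairs compared: FZD1 with FZD7, FZD6 with each of the 3, WNT5B with WNT5A and with WNT2B, and LRP5 with LRP6.

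The co-receptors LRP5 and LRP6, which pass the ligand signal to the beta-catenin branch, showed no difference beyond the spread between libraries. LRP6 stood at 74.6, 79.1 and 70.3 CPM in mock and 73.2, 81.3 and 71.4 CPM in shRNA libraries. Its log2 fold change was 0.01 (SE 0.120, edgeR adjusted p = 0.972), and its sign turned under DESeq2-type size factors. LRP5 stood at 84.7, 58.1 and 52.8 CPM in mock and 44.3, 59.2 and 65.6 CPM in shRNA libraries, and mock library 1 alone was high. Its log2 fold change was -0.21 (SE 0.204, edgeR adjusted p = 0.656), and 0.02 without mock library 1.

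None of the 8 tested members other than WNT2B passed an adjusted p of 0.05 in edgeR, where 4 of 17349 genes did (0.0231%), all lower in the shRNA libraries. At an unadjusted p under 0.05 were 4 of the 8, WNT5B higher and FZD1, FZD6 and FZD7 lower, beside 8.14% of all genes higher and 6.88% lower. The members were chosen with earlier results of these data known, so such counts describe the set and test nothing about it. DESeq2 called 2 of the 8, FZD1 and FZD6, both lower, where it called 3.45% of 16338 genes, 2.18% lower and 1.27% higher. With no filter on low counts edgeR called 3 of the 8, FZD1, FZD6 and FZD7, all lower, where it called 1.95% of 34493 genes lower and 1.17% higher. The 34493 include genes that the main filter removed, while the 8 members passed that filter, so these shares are no like background. Without shRNA library 2, edgeR called 4 of the 8, WNT5B higher and FZD1, FZD6 and FZD7 lower, where it called 6.24% of genes higher and 7.58% lower. Over the 8 members without WNT2B the median log2 fold change was -0.10, 4 higher and 4 lower, beside 0.02 over all genes tested, and it was -0.39 without shRNA library 2 and 0.014 without mock library 1.

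**Figure D2:**
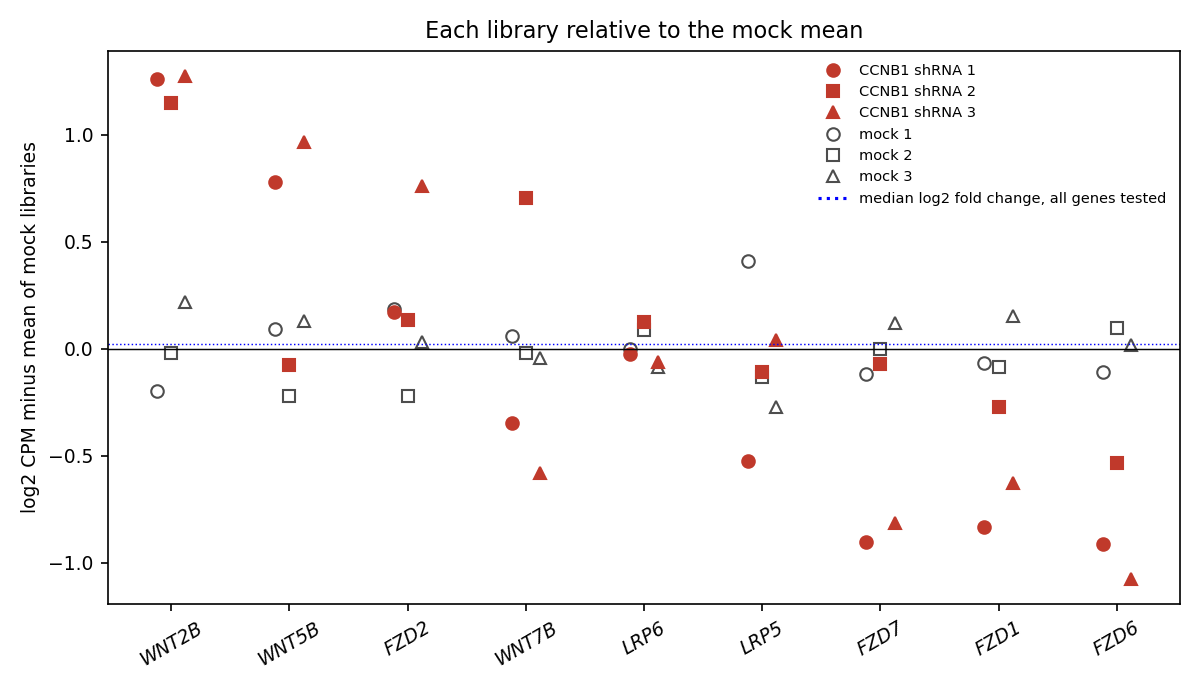
Log2 CPM of each library minus the mean of the mock libraries, for the 9 tested members in order of fold change; open grey symbols are mock and filled red ones CCNB1 shRNA libraries. The square of shRNA library 2 lies nearer to 0 than the other red symbols for WNT5B, FZD7, FZD1 and FZD6, and narrowly so for FZD2 and WNT2B. For WNT7B and LRP6 it lies farthest from 0, and for LRP5 shRNA library 3 lies nearest. The dotted line is the median over all genes tested, 0.02.

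Ordered by deposited FPKM, the count scaled by gene length and library size,, the mock libraries had FZD6 at 21.97, then LRP5 at 10.4, LRP6 at 7.11, FZD2 at 7.002, FZD1 at 5.96, FZD7 at 4.44 and WNT5B at 2.31. The ligands WNT2B at 0.192, WNT7B at 0.104 and WNT5A at 0.0219 FPKM came last. Of the neighbours in this order, LRP6 and FZD2 overlapped over the 3 mock libraries, as did FZD2 and FZD1, and no other neighbours did. Compared within each mock library, LRP6 was above FZD2 in 1 of 3, and FZD2 was above FZD1 in 3 of 3. In shRNA libraries FZD6 still came first at 12.8 FPKM, followed by FZD2 at 9.39, LRP5 at 9.27 and LRP6 at 7.41, and each of these overlapped its neighbour. FZD1 at 4.15, WNT5B at 3.67 and FZD7 at 3.12 FPKM overlapped likewise, and WNT2B at 0.469, WNT7B at 0.111 and WNT5A at 0.00894 FPKM came last without overlap. Compared within each shRNA library, LRP5 was above LRP6 in 3 of 3 and FZD1 above WNT5B in 1 of 3. Each other overlapping pair kept its order in 2 of 3.

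Over the whole frizzled family the summed level was 43.2 ± 2.1003 FPKM (SD, n = 3) in mock and 33.6 ± 2.46 FPKM (SD, n = 3) in shRNA libraries, without overlap. The two-sided exact permutation p was 0.1, the smallest that 3 libraries against 3 allow. FZD6 held 50.8 ± 2.80% of the mock sum and 38.0 ± 5.50% of the shRNA sum, and FZD2 held 16.3 ± 2.65% and 28.1 ± 7.50%, each with an exact permutation p of 0.1 (SD, n = 3). The ratio of FZD6 to FZD2 FPKM was 3.19 ± 0.686 in mock and 1.45 ± 0.552 in shRNA libraries (SD, n = 3, exact permutation p = 0.1). Of the frizzled members FZD6 had the lowest fold change and FZD2 alone was higher with the shRNA. FZD6, the largest part of the sum, stood at 21.97 FPKM in mock and 12.8 FPKM in shRNA libraries on average. The family sum, the shares and this ratio therefore restate the values of the single genes and are no separate tests. LRP5 held 58.8 ± 5.85% and 55.3 ± 5.14% of the summed LRP5 and LRP6 level (SD, n = 3, exact permutation p = 0.5).

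Of 10 frizzled genes, 8 passed the filter and FZD10 had no count in any library. FZD3, a receptor known from axon guidance in mouse, stood at 10.96 ± 2.05 CPM in mock and 15.3 ± 3.30 CPM in shRNA libraries (SD, n = 3, log2 fold change 0.49, edgeR adjusted p = 0.294). FZD5 at 12.06 and 11.97 CPM, FZD4 at 5.76 and 5.03 CPM, FZD9 at 0.944 and 1.01 CPM and FZD8 at 0.442 and 0.256 CPM made up the rest. None of these passed the test or, for FZD8, entered it.

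Of 19 Wnt ligand genes, 7 passed the filter and WNT1, WNT8A and WNT9B had no count in any library. WNT3, a ligand of the beta-catenin branch, led in mock libraries with 35.7% of the summed ligand FPKM, followed by WNT5B with 25.9% and WNT16 with 19.2%. WNT3 stood at 14.0 ± 0.922 and 14.4 ± 1.32 CPM (SD, n = 3). WNT16 stood at 6.19, 5.36 and 5.50 CPM in mock and 3.32, 3.21 and 3.46 CPM in shRNA libraries, all below mock, shRNA library 2 with the others. Its log2 fold change was -0.77 (SE 0.171), short of the threshold in edgeR (adjusted p = 0.115) and past it in DESeq2 (adjusted p = 0.0151). WNT9A stood at 2.45 and 3.38 CPM and WNT10B at 1.601 and 1.71 CPM in mock and shRNA libraries. WNT2B made up 2.17% of the ligand sum in mock and 4.52% in shRNA libraries. The remaining WNT genes that are not members had group means of at most 0.308 CPM. Without WNT2B the ligand sum was 8.71 ± 0.617 FPKM in mock and 10.0 ± 1.501 FPKM in shRNA libraries (SD, n = 3, exact permutation p = 0.3).

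**Figure D3:**
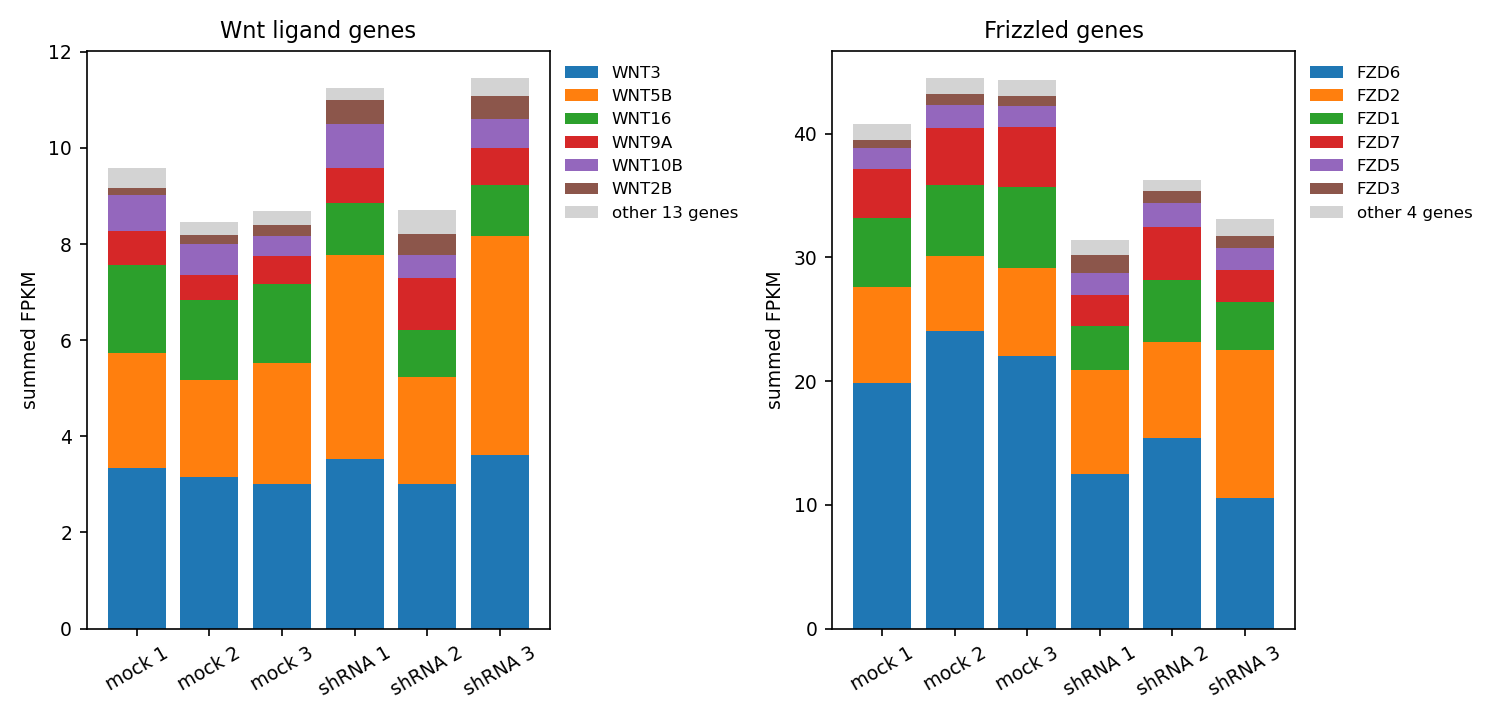
Summed FPKM of the 19 Wnt ligand genes (left) and the 10 frizzled genes (right) in each library, stacked by gene. The frizzled sum is 40.8 to 44.5 FPKM in mock and 31.4 to 36.3 FPKM in shRNA libraries, with the FZD6 block shorter in all 3 shRNA libraries.

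Around the ligands and receptors, 153 other genes of the pathway, the remaining Wnt and frizzled genes included, held 116 that were tested, 37 of them higher and 79 lower in the shRNA libraries. None passed the threshold in edgeR, 3 higher and 13 lower had an unadjusted p under 0.05, and DESeq2 called 7, all lower. Over all genes tested 9240 were higher and 8109 lower, 8.14% higher and 6.88% lower had such a p, and DESeq2 called 3.45%. The median log2 fold change of the pathway genes was -0.12, beside 0.02 over all genes tested. The lists too were chosen with earlier results of these data known, so these counts are a description.

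Among ligand secretion genes 2 of 10 were higher and 8 lower, and the median log2 fold change was -0.16. TMED5, a cargo receptor of the early secretory pathway, stood at 80.6 ± 14.3 CPM in mock and 36.2 ± 7.55 CPM in shRNA libraries (SD, n = 3), all shRNA libraries below mock. Its log2 fold change was -1.15 (SE 0.186, edgeR adjusted p = 0.0848, DESeq2 adjusted p = 4.15e-06). WLS, the carrier that brings Wnt proteins to the cell surface, stood at 210 ± 10.9 and 173 ± 35.1 CPM (SD, n = 3, edgeR adjusted p = 0.427), and TMED10, another cargo receptor, at 289 and 259 CPM. NOTUM, an enzyme that removes the lipid of Wnt proteins and is a target gene as well, stood at 1.06 ± 0.291 and 1.68 ± 0.206 CPM (SD, n = 3, edgeR adjusted p = 0.319).

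Of the other receptors 4 of 9 were higher and 5 lower (median -0.01.) RYK stood at 67.8 and 62.3 CPM, RECK at 21.6 and 22.8 CPM, ROR1 at 4.51 and 5.69 CPM and TSPAN12 at 5.59 and 4.09 CPM in mock and shRNA libraries, with edgeR adjusted p from 0.329 to 0.814. In the R-spondin and receptor turnover group 2 of 5 were higher and 3 lower (median -0.24.) LGR4, an R-spondin receptor, stood at 11.1 and 9.37 CPM, ZNRF3, a ligase that removes frizzleds from the surface, at 5.42 and 4.49 CPM, and LGR6 at 0.549 and 0.886 CPM. RSPO2, an R-spondin ligand, stood at 0.652 ± 0.192 and 0.149 ± 0.117 CPM (SD, n = 3, edgeR adjusted p = 0.133), with all shRNA libraries below mock. Among secreted inhibitors 3 of 7 were higher and 4 lower (median -0.03.) SFRP1, a soluble frizzled-related inhibitor, stood at 12.8 ± 0.846 CPM in mock and 7.12 ± 1.36 CPM in shRNA libraries (SD, n = 3), a log2 fold change of -0.84 (SE 0.172, edgeR adjusted p = 0.105, DESeq2 adjusted p = 0.00175). DKK3 at 79.5 and 80.6 CPM, TRABD2A at 35.1 and 32.7 CPM and DKK1 at 8.46 and 7.06 CPM had edgeR adjusted p from 0.577 to 0.958.

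Of the cytoplasmic transducers 4 of 25 were higher and 21 lower (median -0.16.) CTNNB1, the gene of beta-catenin, stood at 377 ± 35.6 and 373 ± 28.4 CPM (SD, n = 3, log2 fold change -0.01, edgeR adjusted p = 0.970), a sign that turned under upper-quartile scaling. TNKS2, a tankyrase that promotes axin turnover, stood at 131 ± 8.56 and 86.5 ± 24.2 CPM (SD, n = 3, edgeR adjusted p = 0.186). CSNK1A1 at 349 and 289 CPM and CSNK1E at 69.0 and 55.9 CPM, both casein kinases of the pathway, had edgeR adjusted p of 0.371 and 0.322. Of the nuclear effectors 3 of 15 were higher and 12 lower (median -0.15.) BCL9, a co-activator of beta-catenin, stood at 42.8 ± 2.66 and 29.8 ± 6.22 CPM (SD, n = 3, edgeR adjusted p = 0.188), and BCL9L, CTNNBIP1 and TCF7 at 154, 78.6 and 7.22 CPM in mock and 138, 74.5 and 5.66 CPM in shRNA libraries.

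Of the known target genes 9 of 22 were higher and 13 lower (median -0.26.) CCND1, the gene of cyclin D1 and also a target of other pathways, stood at 409 ± 37.2 and 271 ± 31.1 CPM (SD, n = 3), a log2 fold change of -0.60 (SE 0.136, edgeR adjusted p = 0.118, DESeq2 adjusted p = 0.00609). JUN stood at 138 ± 32.4 and 90.9 ± 4.49 CPM (SD, n = 3, edgeR adjusted p = 0.161, DESeq2 adjusted p = 0.0350), FOSL1 at 418 and 301 CPM and CD44 at 712 and 572 CPM. In the other direction, NOTUM and NKD2 were the 2 targets higher at an unadjusted p under 0.05, and NKD2, an inhibitor of the pathway named here after its values were seen, stood at 0.280 ± 0.0326 and 0.585 ± 0.145 CPM (SD, n = 3, log2 fold change 1.06, edgeR adjusted p = 0.247). Of the polarity and calcium genes 7 of 21 were higher and 14 lower (median -0.04.) VANGL1, a core planar polarity protein, stood at 35.2 ± 1.72 and 24.1 ± 0.397 CPM (SD, n = 3, edgeR adjusted p = 0.115, DESeq2 adjusted p = 0.00868), and NLK, a kinase acting on TCF factors, at 16.4 and 10.5 CPM (edgeR adjusted p = 0.169, DESeq2 adjusted p = 0.0468). The small GTPases RHOA at 504 and 571 CPM and RAC1 at 285 and 289 CPM had edgeR adjusted p of 0.474 and 0.956.

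**Figure D4:**
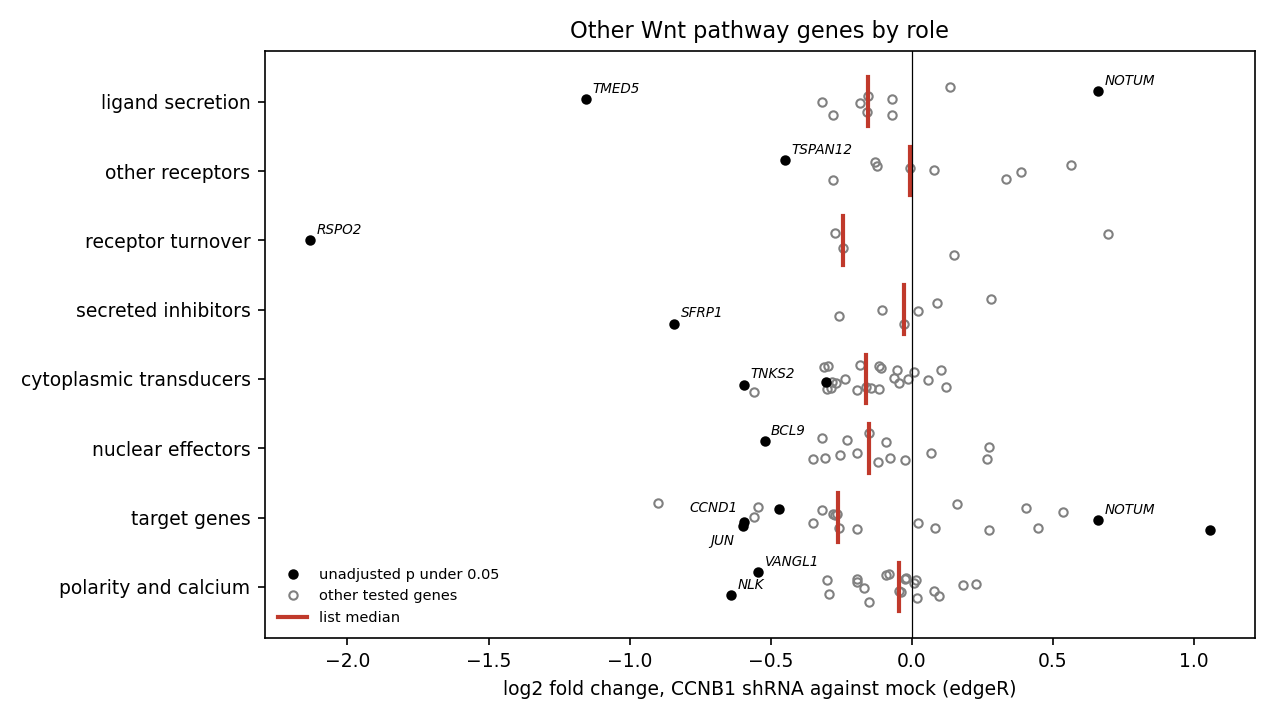
Log2 fold change of the tested pathway genes that are not members, by role, with list medians in red; filled points have an unadjusted p under 0.05, and labels mark genes named in the text. The medians of the 8 groups lie between -0.26 and -0.01, and 3 of them turn positive under upper-quartile scaling (other receptors, secreted inhibitors, polarity and calcium). NOTUM, ZNRF3, DKK1, AXIN2, TCF7 and LEF1 stand in the target group and in another group as well, so the groups are not separate.

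Without shRNA library 2 several of these genes passed the threshold in edgeR. TMED5 was at -1.32 (adjusted p = 0.00157), SFRP1 at -1.01 (0.00248), TNKS2 at -0.85 (0.00154), BCL9 at -0.69 (0.00904), CCND1 at -0.66 (0.0105), CD44 at -0.65 (0.00661) and WNT16 at -0.75 (0.0218) on the log2 scale. Likewise RSPO2 was at -2.95 (0.0123), VANGL1 at -0.54 (0.0151), NLK at -0.79 (0.0188), CSNK1E at -0.42 (0.0250), WLS at -0.45 (0.0256) and JUN at -0.64 (0.0426). In that fit 18 of the 116 pathway genes passed in either direction, where it called 6.24% of all genes higher and 7.58% lower. The share of pathway genes that passed was thus close to that over all genes. The values above describe single genes and are no result about the pathway.

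The genes whose log2 CPM over the 6 libraries was most like that of WNT2B, among 12738 compared, were TPM1 (Pearson r 0.993), SGMS1 (0.993), ABCC2 (0.990), GNG4 (0.987) and ANKAR (0.986). The 6 libraries fall into 2 groups of 3, so r mainly measures the gap between them. TPM1, an actin-binding tropomyosin, stood at 259, 262 and 275 CPM in mock and 332, 314 and 327 CPM in shRNA libraries. ABCC2, an efflux transporter, stood at 4.32, 4.30 and 4.94 CPM and 6.45, 6.46 and 6.85 CPM. The log2 fold changes of the 5 genes ran from 0.27 to 0.54, below that of WNT2B.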

How the data were processed

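RNA sequencing of 6 H1299 libraries was compared, 3 mock and 3 CCNB1 shRNA, grouped by the sample titles. The authors deposited raw counts per gene and FPKM, per the file headers. The submitters' processing notes name HISAT2 2.1.0, featureCounts 2.0.3, bcl2fastq 2.20, DESeq2 and GRCh38.p13. Strand setting, annotation release and the handling of multi-mapping reads are not given in the sources used here. Overlapping genes and stretches shared by paralogs leave some counts uncertain.

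The counts went into edgeR 4.0.16 (R 4.3.3): genes kept by filterByExpr, TMM scaling, the quasi-likelihood F test of shRNA against mock, and Benjamini-Hochberg adjustment over all 17349 genes tested, with a threshold of 0.05. Each SE is the log2 fold change over the root of F, and log2 CPM used a prior count of 2. Alternatives were DESeq2 1.42.0 on the same genes (1011 adjusted p left as NA), other scalings and filters, limma 3.58.1 on log2 of the deposited FPKM plus a pseudocount, the replicate number as a block, and each library left out. The steps were also run on simulated data with planted fold changes, whose outcome is not given here and supports no result. Levels of different genes were compared by FPKM, and sums and shares by a two-sided exact permutation test over the 6 libraries.

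Every pair of libraries within a group differed by more than sampling noise (chi-square of at least 13.9 per degree of freedom), and each was counted once. Positions, exons and transcripts come from GENCODE 29 on GRCh38, whose exon lengths equalled those implied by counts and FPKM, to within 0.5 bases, for 33609 of 34493 genes with a count (97.4%) and for all 10 members. Promoters come from RefSeq on GRCh38.p14. Python 3.11.15, pandas 2.3.3, numpy 2.4.6 and matplotlib 3.10.9 were used for sequences and plots.

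The members and gene lists were chosen with earlier results of these data known. Named outside the members are CCNB1, the other Wnt and frizzled genes, the 5 genes most like WNT2B with a mean of at least 1 CPM, and from each pathway list any gene past the threshold, the 2 highest by mean CPM and the 2 with the smallest edgeR p. All 192 list entries matched by symbol.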

Additional observations from a re-analysis of the deposited data

How the results depend on the processing

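The number of genes called depended on the test and on 1 library. Against 4 in edgeR, 1077 were called with no filter on low counts (404 higher, 673 lower), 564 by DESeq2, 1 and 2 by limma on log2 FPKM with pseudocounts of 0.1 and 1, and 1 to 2453 with a library left out, the last without shRNA library 2. Of the 8 tested members other than WNT2B, 3 passed with no filter (FZD1, FZD6 and FZD7), 2 by DESeq2 and 4 without shRNA library 2, and 0 under the other scalings, the stricter filter, limma or the other left-out libraries. Pathway genes called numbered 13 with no filter, 7 by DESeq2 and 0 to 18 with a library left out. The median log2 fold change of the 9 tested members, WNT2B included, ran from -0.25 to 0.046 with a library left out. Of the 8 without WNT2B, 3 were higher and 5 lower under DESeq2-type size factors and 2 and 6 with no filter. The medians of other receptors, secreted inhibitors and polarity and calcium genes turned to 0.046, 0.021 and 0.0077 under upper-quartile scaling, which moved the median of all genes from 0.023 to 0.074, and that of other receptors was also positive with the replicate block (0.0066), by limma (0.022 and 0.0032) and without mock library 2 or shRNA library 1 or 2 (up to 0.094). The mock order by FPKM was the same under TMM scaling and without mock library 1 or 3, but FZD2 came before LRP6 without mock library 2. Shares of the family sums depended on the measure. By CPM in mock libraries FZD6 held 46.4% in place of 50.8% by FPKM, and FZD2 held 7.74% in place of 16.3%. LRP5 held 46.1% in place of 58.8%, below LRP6, and WNT2B held 6.54% in place of 2.17%. WNT5B held 26.8% in place of 25.9%.

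Pairing of the libraries by replicate number was not evident: deviations of same-numbered libraries correlated at -0.19, 0.11 and 0.07. So few libraries cannot exclude it. With the replicate number as a block, 162 genes were called (61 higher, 101 lower, of 17349), 1 pathway gene among them, and of the 8 members the log2 fold change of FZD6 passed (edgeR adjusted p = 0.0275).

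Small log2 fold changes changed sign, and the cause was not tested. LRP6 was at -0.00470 under DESeq2-type size factors, -0.00471 in DESeq2, -0.026 with no filter and between -0.048 and 0.053 with a library left out. LRP5 ran from -0.34 to 0.020 with a library left out, the latter without mock library 1. WNT7B was at -0.00473 with no filter, -0.043 with the replicate block and from -0.53, without shRNA library 2, to 0.28 with a library left out. CTNNB1 was at 0.036 under upper-quartile scaling, 0.000365 with the stricter filter, 0.034 and 0.033 by limma and between -0.082 and 0.060 with a library left out. FZD5 was at 0.041 under upper-quartile scaling, 0.00477 with the stricter filter, 0.033 and 0.022 by limma and between -0.069 and 0.015 with a library left out. DKK3 was at -0.018 with no filter and between -0.053 and 0.10 with a library left out, and RAC1 at -0.021 and between -0.012 and 0.054. With a library left out, WNT10B ran from -0.19 to 0.31, WNT3 from -0.022 to 0.11 and FZD9 from -0.32 to 0.37. Low counts limit WNT5A, WNT7B, RSPO2 and FZD8, among others.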
